A study of Homo sapiens with 28 samples.

Results

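The response to 1 hairpin against MBNL1 was compared between 2 leukaemia cell lines. Of the 28 RNA-seq libraries of the series, 12 were used, 3 in each of 4 groups, chosen by their labels: MOLM13 cells with hairpin 64, MOLM13 cells with the non-targeting hairpin shNT, MV4;11 cells with hairpin 64 and MV4;11 cells with shNT. Both lines are human acute myeloid leukaemia lines in which the MLL gene is fused to a partner, AF9 in MOLM13 and AF4 in MV4;11. Hairpins were delivered by lentivirus. The labels give 72 h of puromycin for the MOLM13 groups and no selection for the MV4;11 groups. The study's methods describe puromycin or sorting, depending on the construct. The MOLM13 groups were harvested earlier than the day 12 set of that line, and no source used here gives the harvest day of the MV4;11 groups. MOLM13 was grown in RPMI medium and MV4;11 in IMDM, both with 10% FBS, and the lines were labelled as separate experiments. Line, fusion partner, medium, experiment and any difference in selection or harvest day therefore cannot be told apart. The response of a gene is its mean log2(RPKM + 1) with hairpin 64 minus that with shNT, where RPKM is the number of reads scaled to gene length and library size. The difference of responses is the MOLM13 response minus the MV4;11 response. The question was which genes and splicing events answered the same knockdown differently, or in opposite directions, in the 2 lines.

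MBNL1 (muscleblind-like 1) is an RNA-binding protein that recognises short pyrimidine-GC-pyrimidine motifs in pre-mRNA and steers the choice of exons. Its effect is known to depend on position: bound upstream of or within an exon it tends to favour skipping, and bound downstream it tends to favour inclusion. Loss of its function through sequestration on expanded CUG repeats causes the missplicing of myotonic dystrophy. MLL fusion proteins keep cells in a myeloid progenitor state, and cells leaving that state take on granule proteins, lysozyme, phagocyte oxidase and scavenger receptors.

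Library 3 of both MOLM13 groups and library 3 of MV4;11 shNT stood apart from their groups. In the MOLM13 libraries numbered 3, 32.1% of tested genes with hairpin 64 and 31.3% with shNT lay at least 1.5-fold from the mean of the other libraries of their group, against 7.94% to 13.1% for the other 4 MOLM13 libraries. In MV4;11 shNT library 3 the share was 14.0%, against 0.429% to 5.73% for the other 5 MV4;11 libraries. Between 9593 and 10220 genes reached 1 RPKM in a library. RPKM values keep no read totals, so the depth is unknown, and nothing in the labels says that libraries of a group came from separate cultures, so p-values measure only the spread between libraries, which may be technical. The summed RPKM of 10 monocytic leukaemia markers was 4101 to 4228 in MOLM13 with hairpin 64, 1589 to 1909 in MOLM13 with shNT, 1736 to 1872 in MV4;11 with hairpin 64 and 2177 to 3152 in MV4;11 with shNT, and LYZ carried most of it. Marker sums of B cells, erythroid cells, megakaryocytes and fibroblasts stayed under 3 RPKM in every library. The sum of 8 T and NK cell markers, 4 of them under 1 RPKM in every group, was 71.6 to 89.1 in MOLM13 with hairpin 64 and 45.8 to 96.7 with shNT, and 46.4 to 49.6 in MV4;11 with hairpin 64 and 22.5 to 36.5 with shNT. NKG7 carried most of that sum. The part of these markers in the results was not tested.

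MBNL1 itself (chromosome 3, 151961617 to 152183569 in GRCh37) was lowered to nearly the same level in both lines. It stood at 2.94, 2.96 and 3.80 RPKM in MOLM13 with hairpin 64, against 18.8, 20.0 and 28.6 with shNT. In MV4;11 it stood at 3.62, 3.54 and 3.98 RPKM with hairpin 64, against 23.3, 25.4 and 18.5 with shNT. In each line every hairpin 64 library lay below every shNT library, and the hairpin 64 values of the lines lay side by side. On the log2(RPKM + 1) scale the response was -2.45 in MOLM13 and -2.30 in MV4;11. The difference of responses was -0.15, with a 95% interval of -0.69 to 0.39 (standard error 0.245, adjusted p = 1.00, limma). With the second MOLM13 shNT set as control the sign turned, at 0.06. The paralogs MBNL2 and MBNL3, which bind the same kind of motif, had no group mean above 0.677 and 0.326 RPKM and were not tested.

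Of 10714 genes with a mean of at least 1 RPKM in some group, 70 had a difference of responses of at least 1.5-fold at an unadjusted p of 0.01 or less (0.653%, limma). The response was higher in MOLM13 for 37 of them (0.345%) and lower in MOLM13 for 33 (0.308%). At an unadjusted p under 0.05 there were 337 genes, 3.15% of those tested, and 1 gene, LYZ, had an adjusted p under 0.05 (0.00933%). Single-library responses, the log2 value of a hairpin 64 library minus the shNT mean of its line, did not overlap between the lines for any of the 70 genes, against 26.6% of all tested genes. The same values gave the call, which favours this outcome, and the spread of the shNT libraries does not enter, so it is no further support. Each line taken alone gave more calls, 384 in MOLM13 (3.58%, with 212 or 1.98% up and 172 or 1.61% down) and 409 in MV4;11 (3.82%, with 276 or 2.58% up and 133 or 1.24% down). Of the 136 genes called in both lines, 135 moved in the same direction. Across all tested genes the responses of the lines had a Pearson r of 0.616, which is a description over genes that are not independent.

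In MOLM13, libraries 1 and 2 of both groups deviated together and against both libraries numbered 3, which was not seen in MV4;11. With the replicate number as a block in MOLM13 alone, 227 genes were called (2.12%, 117 higher and 110 lower, 28 at an adjusted p under 0.05), and with the block in both lines 261 (2.44%, 122 higher and 139 lower, 16 at an adjusted p under 0.05). All 70 genes were also called in both of these fits. A block left each difference of responses unchanged and altered only its standard error and p-value, so the kept calls are no independent support. The block in MOLM13 alone was limited to the line where the shared deviations were seen, in the same libraries. Its p-values, here and below, are therefore a description. Without MV4;11 shNT library 3 the count was 473, with 75 higher and 398 lower. Without both MOLM13 libraries numbered 3 it was 217, with 143 higher and 74 lower.

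**Figure D1:**
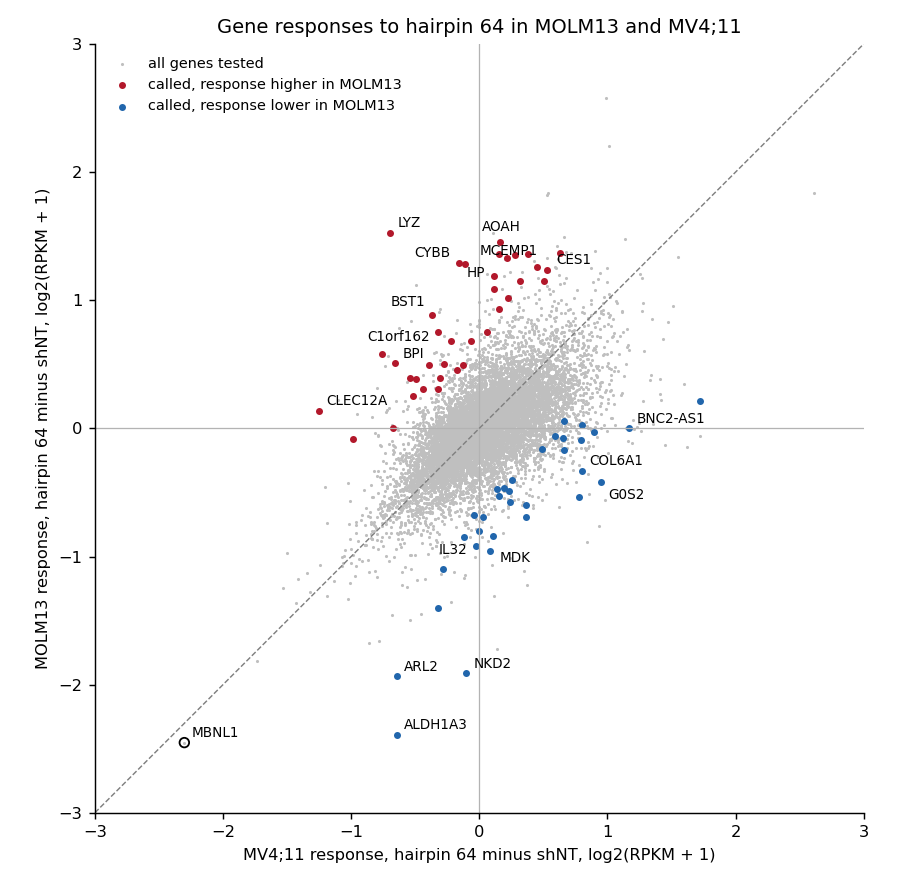
Response to hairpin 64 in MOLM13 (vertical axis) against MV4;11 (horizontal axis), both on log2(RPKM + 1), for the 10714 tested genes in grey. The 37 called genes with a higher response in MOLM13 are red, the 33 with a lower one are blue, the dashed line marks equal responses, and MBNL1 (circled) lies beside that line at -2.45 and -2.30.

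The 37 genes with a higher response in MOLM13 included LYZ and 4 of the 13 tested granule protein genes. LYZ encodes lysozyme, which cleaves bacterial cell walls (chromosome 12, 69742161 to 69748014). It stood at 3809, 3796 and 3626 RPKM in MOLM13 with hairpin 64, against 1466, 1482 and 1006 with shNT. Its MV4;11 values were 1435, 1449 and 1327 RPKM with hairpin 64, against 2658, 2563 and 1717 with shNT. The groups did not overlap in either line, and the order was reversed: hairpin 64 lay above shNT in MOLM13 and below it in MV4;11. The responses were 1.53 and -0.69, a difference of 2.22 (standard error 0.268, adjusted p = 0.0482, limma). The adjusted p was 0.00484 with the block in MOLM13 and 0.0125 with the block in both lines. The difference lay between 2.04 and 2.93 over all 23 alternatives tried, with an adjusted p of 1.68e-05 to 0.569, and the adjusted p was not under 0.05 in 10 of the 12 fits that left out a library. LYZ was the only called gene whose responses were each at least 1.5-fold and opposite. In bulk RNA, fewer cells of a type and less RNA per cell cannot be told apart.

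HP, haptoglobin, which binds free haemoglobin, stood at 19.9, 17.8 and 13.4 RPKM in MOLM13 with hairpin 64, against 7.66, 7.71 and 4.13 with shNT. In MV4;11 its libraries overlapped, at 6.87, 5.69 and 6.22 RPKM with hairpin 64 and 7.81, 5.92 and 7.67 with shNT. The difference of responses was 1.45 (standard error 0.306, adjusted p = 0.43, limma), with an adjusted p of 0.00825 with the block in MOLM13. Its close copy HPR can share reads with it, so the split between these loci is uncertain.

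The 4 called granule protein genes were BPI, CAMP, SRGN and RNASE3. BPI, which binds and permeabilises Gram-negative bacteria, stood at 34.0, 33.3 and 21.5 RPKM in MOLM13 with hairpin 64, against 16.5, 18.3 and 26.6 with shNT. MV4;11 libraries had 2.50, 2.67 and 2.36 RPKM with hairpin 64, against 4.98, 4.59 and 4.04 with shNT. The MOLM13 groups overlapped through both libraries numbered 3, while the MV4;11 groups did not overlap (difference of responses 1.17, standard error 0.285, adjusted p = 0.805, limma). CAMP, the cathelicidin antimicrobial peptide, was low, at 2.78, 1.85 and 2.16 RPKM in MOLM13 with hairpin 64 and 0.519, 0.459 and 0.846 with shNT. In MV4;11 it stayed under 1 RPKM in all 6 libraries, and the difference of responses was 0.79 (standard error 0.223, adjusted p = 1.00, limma). SRGN, serglycin, the proteoglycan that packs granule contents, was among the abundant genes, at 2253, 2202 and 2014 RPKM in MOLM13 with hairpin 64 and 1486, 1481 and 1598 with shNT. In MV4;11 the order was the other way round, at 1485, 1529 and 1396 RPKM with hairpin 64 and 1869, 1919 and 1566 with shNT. Neither SRGN response reached 1.5-fold alone, at 0.50 and -0.28, and their difference was 0.78 (standard error 0.163, adjusted p = 0.43, limma). RNASE3, eosinophil cationic protein, had a difference of 0.93 (adjusted p = 1.00, limma), but its call was lost in 10 of 12 fits without 1 library, and its close copy RNASE2 can share reads with it. The CAMP call was lost in 5 of those 12 fits.

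The MOLM13 libraries numbered 3 also stood apart within the granule list. MPO, the myeloperoxidase of azurophil granules, stood at 104, 126 and 22.1 RPKM in MOLM13 with hairpin 64, against 16.6, 18.2 and 3.26 with shNT. For MV4;11 the values were 6.81, 6.20 and 5.35 RPKM with hairpin 64, against 1.83, 2.32 and 3.87 with shNT. Hairpin 64 lay above shNT in both lines, and library 3 was the lowest of each MOLM13 group. The difference of responses was 1.59 and was not called (adjusted p = 1.00, limma), its adjusted p was 0.0344 with the block in MOLM13 and 0.0730 with the block in both lines, and with the second shNT set the difference was 0.34. MPO was named after its values were seen. Over the list the median difference was 0.78 and 10 of 13 genes were above 0, against a median of -0.02 and 5020 of 10714 genes over all tested genes. With the block in MOLM13, 7 of the 13 were called higher and none lower, against 117 (1.09%) and 110 (1.03%) of all tested genes.

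CYBB and BST1 were also among the named genes. CYBB, the catalytic subunit of the phagocyte NADPH oxidase, stood at 6.93, 6.90 and 5.88 RPKM in MOLM13 with hairpin 64, against 1.87, 1.90 and 2.59 with shNT. The MV4;11 groups had 11.9, 10.4 and 9.60 RPKM with hairpin 64, against 14.9, 11.9 and 8.57 with shNT. The MOLM13 groups did not overlap and the MV4;11 groups did (difference of responses 1.39, standard error 0.256, adjusted p = 0.356, limma). The adjusted p became 0.0659 with the block in MOLM13 and 0.0475 with the block in both lines. BST1, an ADP-ribosyl cyclase on the cell surface, stood at 19.5, 19.5 and 11.8 RPKM in MOLM13 with hairpin 64, against 9.53, 9.70 and 6.61 with shNT. With MV4;11 cells the values were 9.94, 9.75 and 10.4 RPKM with hairpin 64, against 15.2, 13.1 and 11.7 with shNT. Neither pair of groups overlapped, and the order was opposite in the 2 lines, although the MV4;11 response of -0.37 was under 1.5-fold (difference 1.25, standard error 0.283, adjusted p = 0.584, limma). The adjusted p became 0.00825 with the block in MOLM13.

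CLEC12A, an inhibitory lectin receptor of myeloid cells, differed through MV4;11. It stood at 0.987, 1.34 and 0.180 RPKM in MOLM13 with hairpin 64, against 1.02, 0.765 and 0.155 with shNT. In MV4;11 it stood at 3.14, 4.02 and 4.06 RPKM with hairpin 64, against 13.6, 9.94 and 7.87 with shNT. MOLM13 groups overlapped at a low level and MV4;11 groups were apart (difference of responses 1.39, standard error 0.401, adjusted p = 1.00, limma), with the call lost in 6 of 12 fits without 1 library. C1orf162 (chromosome 1, 112016414 to 112021134) had 16.6, 13.0 and 18.5 RPKM in MOLM13 with hairpin 64, against 10.2, 9.38 and 11.4 with shNT. Its MV4;11 values were 11.1, 13.2 and 14.3 RPKM with hairpin 64, against 25.8, 21.4 and 20.3 with shNT. The groups were apart in both lines and in opposite order, with responses of 0.58, just under 1.5-fold, and -0.76 (difference 1.34, standard error 0.223, adjusted p = 0.212, limma). The adjusted p became 0.0132 with the block in MOLM13.

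3 called genes outside the naming rule, chosen after their values were seen, had small p-values in the same direction. MARCO, a scavenger receptor that binds bacteria, stood at 5.06, 5.246 and 4.77 RPKM in MOLM13 with hairpin 64 and 2.26, 2.83 and 2.68 with shNT, and at 6.94, 6.45 and 6.28 RPKM in MV4;11 with hairpin 64 and 8.05, 7.80 and 9.64 with shNT. The groups were apart in both lines in opposite order (responses 0.75 and -0.33, difference 1.08, adjusted p = 0.2, limma). MCEMP1, a membrane protein of mast cells and monocytes, stood at 16.7, 16.0 and 15.3 RPKM in MOLM13 with hairpin 64 and 6.16, 6.55 and 6.73 with shNT, while its MV4;11 libraries overlapped at 5.64 to 7.64 and 5.68 to 6.47 RPKM (difference 1.07, adjusted p = 0.2, limma). CES1, a carboxylesterase of monocytes and liver, was higher with hairpin 64 in both lines and by more in MOLM13. It stood at 444, 472 and 443 RPKM in MOLM13 with hairpin 64 and 192, 199 and 184 with shNT, and at 206, 220 and 212 RPKM in MV4;11 with hairpin 64 and 152, 146 and 143 with shNT (responses 1.24 and 0.53, difference 0.71, adjusted p = 0.43, limma). Its pseudogenes CES1P1 and CES1P2 were also called and can share reads with it.

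**Figure D2:**
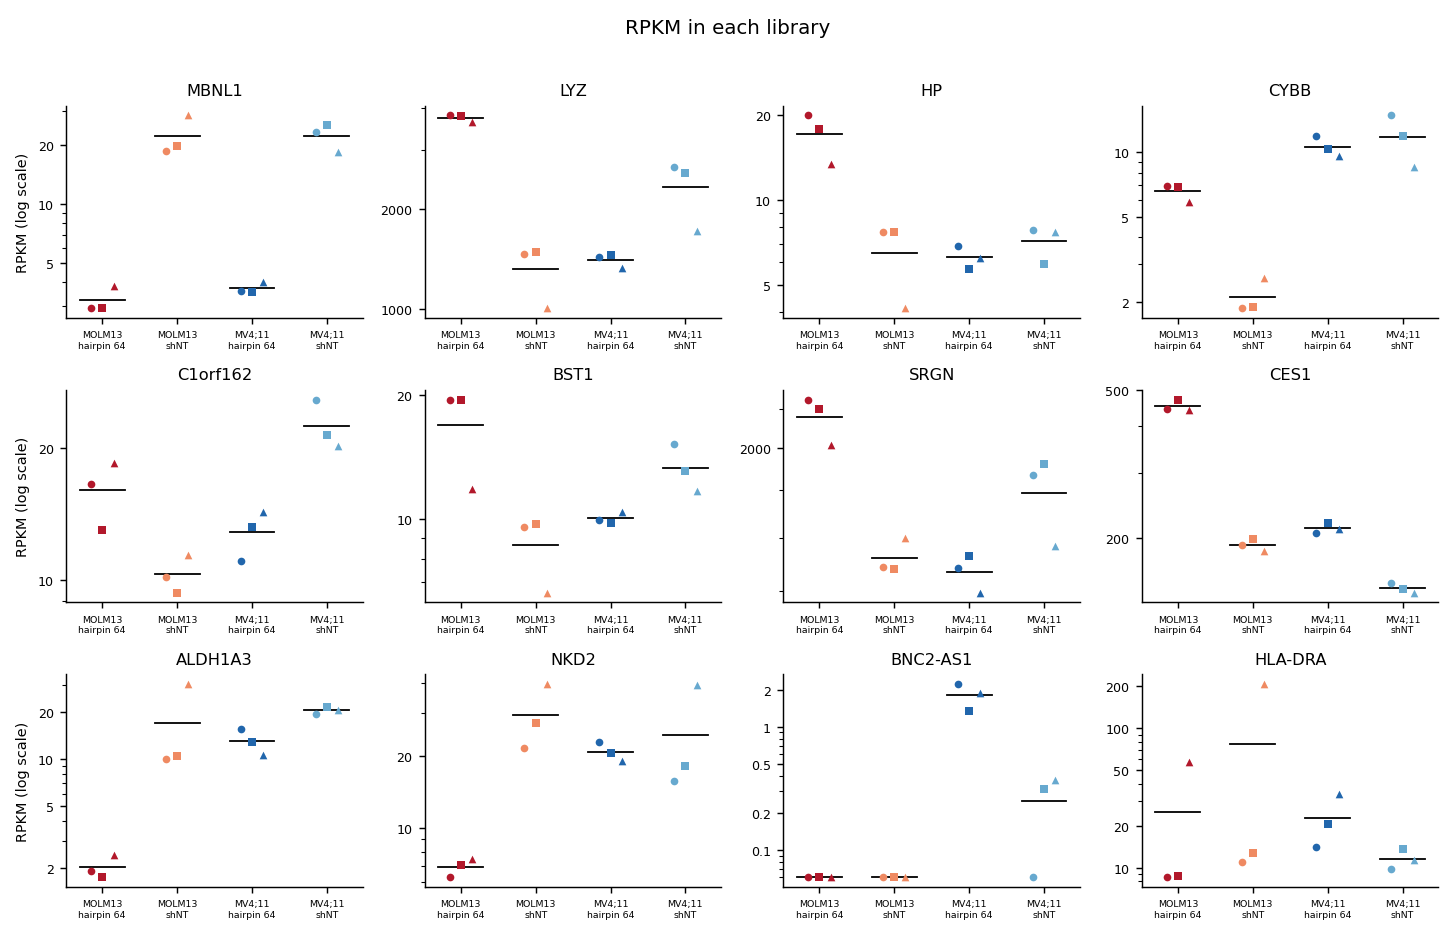
RPKM on a log axis in each library for 12 genes, with MOLM13 hairpin 64, MOLM13 shNT, MV4;11 hairpin 64 and MV4;11 shNT shown left to right. Circles, squares and triangles are libraries 1, 2 and 3 and the line is the group mean, with hairpin 64 above shNT in MOLM13 and below it in MV4;11 for LYZ, and below it in both lines for MBNL1.

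Among the other genes with a higher response in MOLM13, AOAH, which deacylates bacterial lipopolysaccharide, stood at 7.96, 7.19 and 12.4 RPKM in MOLM13 with hairpin 64, against 1.91, 2.44 and 3.76 with shNT. In MV4;11 its groups overlapped, at 2.65, 2.61 and 3.45 RPKM with hairpin 64 and 3.38, 2.24 and 1.94 with shNT (difference of responses 1.29, standard error 0.333, adjusted p = 0.92, limma). SNHG25, a small nucleolar RNA host gene, was 11.0, 11.1 and 18.7 RPKM in MOLM13 with hairpin 64, against 4.07, 4.76 and 4.77 with shNT, and overlapped in MV4;11 (difference 1.21, adjusted p = 1.00, limma), with the call lost in 4 of 12 fits without 1 library. GLA, the lysosomal alpha-galactosidase, had a small difference of 0.63 that came from both sides, with responses of 0.31 and -0.32 (adjusted p = 1.00, limma), and its call was lost in 7 of those 12 fits. ENSG00000221857, which the annotation used gives no symbol, had a difference of 1.11 (adjusted p = 1.00, limma). MEFV, which encodes pyrin and was named after its values were seen, was the only one of the 37 whose responses were both at least 1.5-fold upward, at 1.37 in MOLM13 and 0.63 in MV4;11 (difference 0.73, adjusted p = 0.805, limma).

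Of the 37 genes, 20 passed 1.5-fold in MOLM13 alone, 5 in MV4;11 alone, 1 in both in the same direction and 10 in neither, beside LYZ. A MOLM13 experiment that shares no library with these, hairpin 64 and shNT at day 12 with 3 libraries each, was set beside the MOLM13 side. All 37 had a day 12 response above 0, against 58.0% of all tested genes, and 24 were called up there, against a background of 2.96%. The 37 were picked partly for a high MOLM13 response, so all tested genes are an unlike background. The share among genes called up in MOLM13 was not computed. The day 12 response was 2.24 for LYZ, 2.14 for HP, 2.75 for CYBB and 1.76 for AOAH, but 0.13 for BPI, 0.22 for SRGN and 0.06 for GLA. Day 12 has no MV4;11 counterpart, so it bears on the MOLM13 response and not on the difference. With hairpin 65 in MOLM13, where MBNL1 stood at 12.7 ± 3.13 RPKM (SD, n = 4) against 18.9 ± 1.34 in the second shNT set (SD, n = 3), 16 of the 37 had a response above 0 and none was called in either direction. The hairpin 65 response was -0.86 for LYZ, -0.11 for HP and 0.42 for CYBB, and none of these was called.

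The 33 genes with a lower response in MOLM13 included NKD2, ALDH1A3 and ARL2. NKD2, an inhibitor of Wnt signalling (chromosome 5, 1008917 to 1039058), stood at 6.29, 7.05 and 7.44 RPKM in MOLM13 with hairpin 64, against 21.6, 27.5 and 39.7 with shNT. In MV4;11 its groups overlapped, at 22.8, 20.7 and 19.1 RPKM with hairpin 64 and 15.7, 18.1 and 39.3 with shNT. The responses were -1.91 and -0.10 (difference -1.81, standard error 0.425, adjusted p = 0.692, limma). ALDH1A3, which makes retinoic acid from retinaldehyde, stood at 1.91, 1.76 and 2.45 RPKM in MOLM13 with hairpin 64, against 10.0, 10.5 and 30.3 with shNT. MV4;11 libraries had 15.5, 12.8 and 10.7 RPKM with hairpin 64, against 19.6, 21.7 and 20.7 with shNT. It lay lower with hairpin 64 in both lines without overlap, by more in MOLM13 (responses -2.39 and -0.64, difference -1.75, standard error 0.464, adjusted p = 0.923, limma). With the second MOLM13 shNT set the difference was -0.64 and no longer called.

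ARL2, a small GTPase of tubulin folding, stood at 2.81, 2.96 and 1.75 RPKM in MOLM13 with hairpin 64, against 11.3, 12.0 and 13.4 with shNT. For MV4;11 the values were 2.82, 2.16 and 2.68 RPKM with hairpin 64, against 3.18, 3.26 and 8.57 with shNT, close together but without overlap (difference of responses -1.29, adjusted p = 1.00, limma). The ARL2 call was lost in 10 of 12 fits without 1 library. IL32, a cytokine without a mouse counterpart, was low throughout, at 0.361, 0.306 and 0.214 RPKM in MOLM13 with hairpin 64 against 1.16, 1.61 and 1.60 with shNT, and at most 0.314 RPKM in MV4;11 (difference -0.90, standard error 0.176, adjusted p = 0.43, limma). HMX2, a homeobox gene, differed by -1.06 (adjusted p = 0.92, limma). MDK, the growth factor midkine, differed by -1.04 (adjusted p = 0.95, limma) and was named after its values were seen.

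Other genes of this direction were higher with hairpin 64 in MV4;11 and changed little in MOLM13. BNC2-AS1, an antisense transcript, was at the same lowest value of 0.0603 RPKM in all 6 MOLM13 libraries. The MV4;11 groups had 2.22, 1.34 and 1.89 RPKM with hairpin 64, against 0.0603, 0.314 and 0.372 with shNT, without overlap (difference of responses -1.17, standard error 0.198, adjusted p = 0.212, limma). The adjusted p became 0.0399 with the block in MOLM13 and 0.0837 with the block in both lines. G0S2, an inhibitor of triglyceride breakdown, stood at 5.16, 3.68 and 3.59 RPKM in MV4;11 with hairpin 64, against 1.39, 1.04 and 2.74 with shNT. In MOLM13 it stood at 0.925, 1.43 and 0.759 RPKM with hairpin 64 and 2.56, 1.86 and 0.943 with shNT, which overlapped (difference -1.37, standard error 0.375, adjusted p = 0.95, limma). COL6A1, a collagen VI chain, stood at 2.00, 2.17 and 2.68 RPKM in MV4;11 with hairpin 64 and 0.712, 0.635 and 1.37 with shNT, and at most at 1.07 RPKM in MOLM13 (difference -1.13, adjusted p = 0.95, limma). FLNC, filamin C, an actin cross-linker named after its values were seen, differed by -0.88 (adjusted p = 1.00, limma), with the call lost in 9 of 12 fits without 1 library, and for G0S2 and COL6A1 it was lost in 3. The remaining genes under the naming rule were ENSG00000161570 (-1.08), AC009133.19 (-1.32) and ENSG00000266651 (-1.51), of which only AC009133.19 has a name in the sources used here.

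Of the 33, 12 passed 1.5-fold in MOLM13 alone, 12 in MV4;11 alone, 2 in both in the same direction and 7 in neither. At day 12 in MOLM13, 21 of the 33 had a response below 0, against 42.0% of all tested genes. There 8 were called down, against a background of 2.07%, and 1 was called up. The 33 were picked partly for a low MOLM13 response, so all tested genes are again an unlike background. The day 12 response was -1.27 for NKD2, -1.66 for ALDH1A3, -1.70 for ARL2 and -1.33 for MDK. With hairpin 65 in MOLM13, 17 of the 33 had a response below 0, none was called down (1.33% of all tested genes) and 2 were called up (1.57%), FLNC at 1.14 and AC006129.2 at 0.86, both named after their values were seen.

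Of 29 gene lists on pathways and cell states, 25 held no called gene. Lysosomal genes had a median difference of 0.29 with 22 of 27 above 0 and 1 called (GLA). Monocyte and macrophage markers had a median of 0.23 with 13 of 20 above 0 and 1 called (LYZ), and 6 of the 20 called higher with the block in MOLM13, against 1.09% of all tested genes. Targets of MLL fusions had a median of -0.32 with 2 of 18 above 0, and cytokine receptors and FLT3 to STAT5 signalling had -0.37 with 5 of 24 above 0, with none called in either list. Among the inflammatory cytokines tested 1 of 14 was called, IL32, and the median was -0.19. Lists were matched by symbol, so genes that took no symbol, such as the called ENSG00000161570, could not enter any list.

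HLA class II genes, which present antigen to T cells, had the lowest list median, -1.03, with 0 of 10 above 0 and none called. HLA-DRA stood at 8.61, 8.80 and 57.4 RPKM in MOLM13 with hairpin 64, against 11.1, 12.8 and 207 with shNT. With MV4;11 cells the values were 14.1, 20.7 and 33.6 RPKM with hairpin 64, against 9.80, 13.6 and 11.4 with shNT. The 2 MOLM13 libraries numbered 3 held by far its highest values, and the difference of responses was -1.73 (standard error 1.39, adjusted p = 1.00, limma). CD74, the invariant chain of class II, showed the same library, at 40.2, 44.8 and 83.3 RPKM in MOLM13 with hairpin 64 against 77.0, 82.7 and 366 with shNT (difference -1.42, adjusted p = 1.00, limma). With the block in MOLM13, HLA-DPA1, CD74 and HLA-DRA were called lower, 3 of 10 against 1.03% of all tested genes. With the second MOLM13 shNT set as control the difference turned to 1.45 for HLA-DRA and 1.11 for HLA-DRB1, and it was -0.56 for CD74. HLA-DRB1 and HLA-DRB5 are near copies and can share reads.

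**Figure D3:**
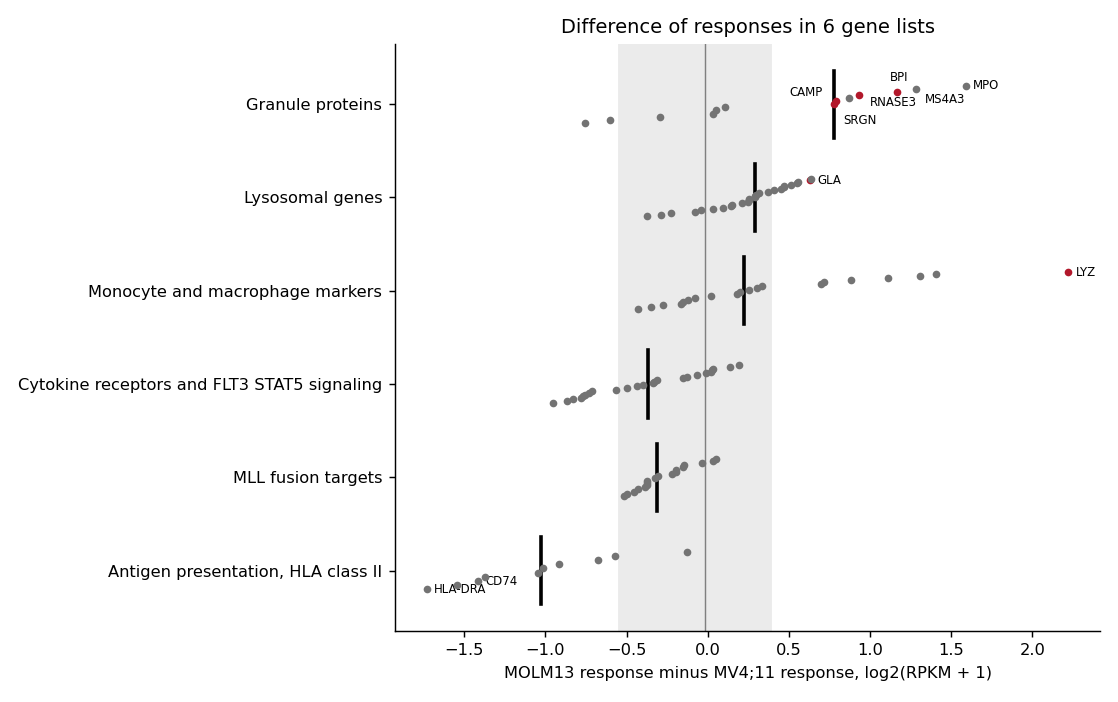
Difference of responses, MOLM13 minus MV4;11 on log2(RPKM + 1), for the tested genes of 6 lists. Each point is a gene, red points are called, black bars are list medians (0.78 for granule proteins, -1.03 for HLA class II), the grey line is the median of all tested genes and the grey band runs from their 5th to their 95th percentile.

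Splicing was compared on PSI, the percentage of junction reads at a site that support the examined form. A response is the PSI with hairpin 64 minus that with shNT, in percentage points. For cassette exons and introns it is given as inclusion of the exon or retention of the intron, and for other events as use of the examined junction. Of 20116 junction clusters tested, 435 had a difference of responses over 10 points with an unadjusted limma p no higher than 0.01 (2.16%), 2376 had an unadjusted p under 0.05, and 18 also had an adjusted p under 0.05 (0.0895%). All 435 had single-library responses that did not overlap between the lines, against 42.2% of all tested clusters. Here too the call itself favours this outcome. Each cluster is represented by its event with the smallest p for the difference of responses. For these same events, each line alone gave 635 calls in MOLM13 (3.16%) and 593 in MV4;11 (2.95%). Such counts for each line come from events picked where the lines differ most, which favours disagreement between the lines. The read number behind a PSI value is unknown, so a value listed at 0 or 100 can rest on few reads.

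The 435 clusters fell into 5 kinds by the size of each response against 10 points. In 27 both responses passed in the same direction, in 65 both passed in opposite directions, in 145 the MOLM13 response alone passed, in 124 the MV4;11 response alone, and in 74 neither. Intron retention made up 117, of which 86 had the higher response in MOLM13 (1.69% of 5085 intron clusters) and 31 the lower (0.61%), and 59 of the 86 passed 10 points in MOLM13 alone. For the same picked events, intron retention in each line alone was called higher in 170 clusters and lower in 14 in MOLM13. In MV4;11 it was called higher in 80 and lower in 23. Cassette exons made up 155, with 64 higher (0.935% of 6846) and 91 lower in MOLM13 (1.33%).

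**Figure D4:**
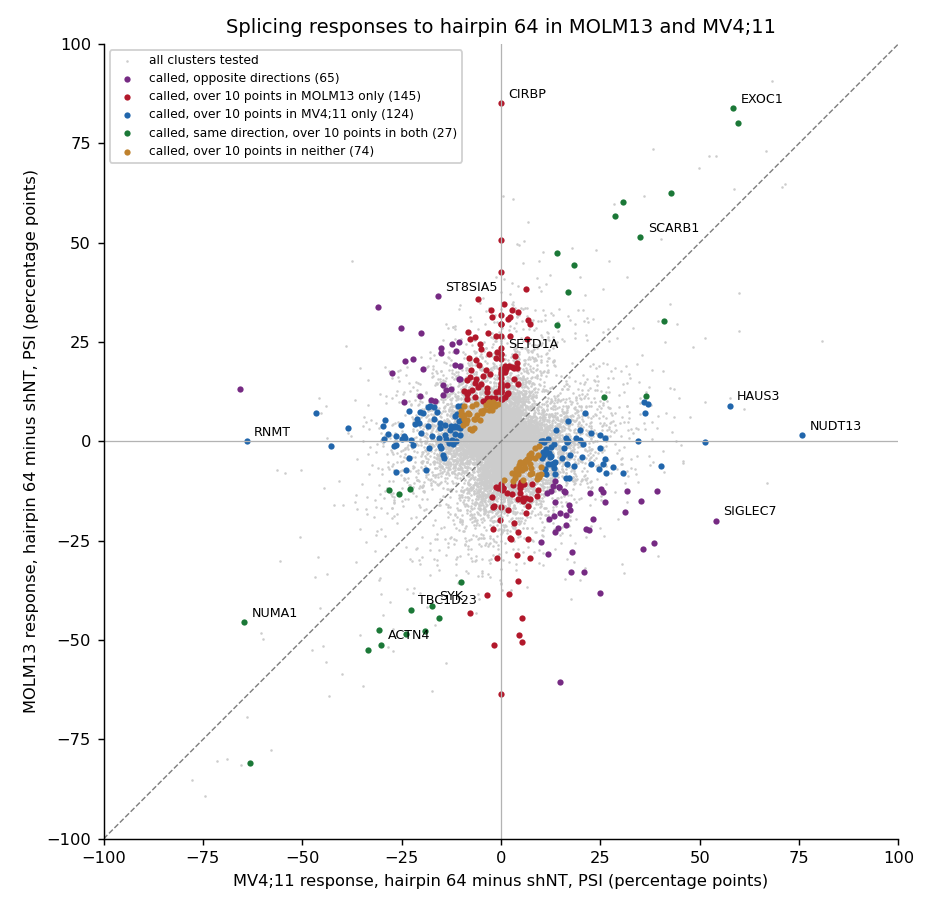
PSI response to hairpin 64 in MOLM13 (vertical axis) against MV4;11 (horizontal axis), in percentage points, for all tested junction clusters in grey and the called ones coloured by kind. The 27 clusters that moved in the same direction in both lines lie in the lower left and upper right, and the 65 that moved in opposite directions lie in the other corners.

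5 cassette exons that moved in the same direction in both lines, but by different amounts, are described first, and their sequences are shown because the exon and its flank are where MBNL1 motifs would lie. All are coding exons in GRCh37, printed 5′ to 3′ on the transcript strand, with capitals marking every TGCT or TGCC and every CGCT or CGCC, which were searched on the transcript strand only and may overlap each other. For EXOC1, an exon included more with hairpin 64, the 100 bases upstream are shown with the exon, and for the others, skipped more with hairpin 64, the exon and 100 bases downstream are shown.
EXOC1 upstream, chr4:56754954-56755053, plus strand: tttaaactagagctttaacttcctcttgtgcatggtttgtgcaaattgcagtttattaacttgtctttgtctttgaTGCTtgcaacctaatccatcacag
EXOC1 exon, chr4:56755054-56755098: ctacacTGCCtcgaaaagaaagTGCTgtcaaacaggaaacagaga
ACTN4 exon, chr19:39200897-39200982, plus strand: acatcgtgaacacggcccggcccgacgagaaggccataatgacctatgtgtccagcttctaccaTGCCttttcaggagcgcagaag
ACTN4 downstream, chr19:39200983-39201082: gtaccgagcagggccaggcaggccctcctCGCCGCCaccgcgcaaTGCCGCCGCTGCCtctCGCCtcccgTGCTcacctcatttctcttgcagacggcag
TBC1D23 exon, chr3:100030677-100030721, plus strand: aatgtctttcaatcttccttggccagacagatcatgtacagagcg
TBC1D23 downstream, chr3:100030722-100030821: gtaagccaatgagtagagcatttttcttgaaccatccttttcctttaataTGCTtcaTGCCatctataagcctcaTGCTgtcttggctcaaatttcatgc
SYK exon, chr9:93629413-93629481, plus strand: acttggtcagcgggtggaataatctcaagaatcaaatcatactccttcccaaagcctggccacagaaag
SYK downstream, chr9:93629482-93629581: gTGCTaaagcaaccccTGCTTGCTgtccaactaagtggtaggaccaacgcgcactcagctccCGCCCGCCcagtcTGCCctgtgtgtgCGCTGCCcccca
NUMA1 exon, chr11:71723447-71723488, minus strand: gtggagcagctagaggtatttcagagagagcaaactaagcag
NUMA1 downstream, chr11:71723347-71723446: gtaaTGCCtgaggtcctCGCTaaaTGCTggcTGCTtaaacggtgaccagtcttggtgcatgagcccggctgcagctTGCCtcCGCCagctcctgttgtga
The downstream window held 8 motifs for ACTN4, 8 for SYK, 6 for NUMA1 and 3 for TBC1D23. Among other exons skipped in both lines with a called difference, it held 4 for LMO7, 3 for ARHGEF40, 1 for BAZ2B and 0 for RABGAP1L. Of 6301 tested cassette exons that could be placed (92.0%), 65.4% had at least 1 motif in that window, 13.8% at least 3, 1.06% at least 6 and 0.19% at least 8. The EXOC1 exon held 2 motifs and its upstream window 1, and 66.2% of placed exons had at least 1 upstream. The downstream window of EXOC1, not shown, also held 1. The upstream windows of the others, not shown, held 2 for ACTN4, 2 for TBC1D23, 2 for NUMA1 and 1 for SYK. At least 2 upstream were held by 33.3% of placed exons. A match of letters is a description and not a binding site.

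EXOC1 encodes a subunit of the exocyst, which tethers secretory vesicles to the plasma membrane. Its 45-base exon had a PSI of 81.4, 86.2 and 86.3% in MOLM13 with hairpin 64, against 0, 0 and 2.22% with shNT. In MV4;11 it had 55.6, 67.8 and 54.5% with hairpin 64, against 0.901, 1.82 and 0% with shNT. The shNT libraries of the lines overlapped near 0 and the hairpin 64 libraries did not overlap, so the lines differed with the hairpin only. The response was larger in MOLM13 by 25.5 points (standard error 4.52, adjusted p = 0.233, limma).

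ACTN4, which cross-links actin, showed the same grading for skipping. Its 86-base exon was at 41.3, 48.5 and 46.4% in MOLM13 with hairpin 64, against 97.6, 96.2 and 96.0% with shNT, and at 65.6, 69.2 and 69.1% in MV4;11 with hairpin 64, against 97.6, 98.4 and 98.7% with shNT. The difference of responses was -20.9 points (standard error 2.43, adjusted p = 0.0487, limma). SYK, a tyrosine kinase downstream of immune receptors and integrins, lost its 69-base exon to 54.7, 51.1 and 65.6% in MOLM13 with hairpin 64, against 98.7, 97.8 and 99.0% with shNT. In MV4;11 the SYK exon was at 79.9, 79.2 and 85.1% with hairpin 64, against 97.3, 99.7 and 99.4% with shNT (difference -24.0 points, standard error 4.69, adjusted p = 0.306, limma). In both genes the exon was nearly constitutive with shNT in both lines and was skipped more with hairpin 64 in MOLM13.

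TBC1D23, a protein that helps capture endosomal vesicles at the Golgi, started from unequal levels. Its 45-base exon was at 13.7, 15.7 and 19.2% in MOLM13 with hairpin 64, against 59.5, 56.5 and 59.6% with shNT. Its MV4;11 values were 20.5, 23.5 and 22.6% with hairpin 64, against 44.7, 44.6 and 45.3% with shNT. The gap between the lines lay mainly in the shNT libraries, where MOLM13 was the higher (difference of responses -19.7 points, standard error 2.07, adjusted p = 0.0317, limma).

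The grading also appeared in other event types, in DNM2, SCARB1 and RP1-66C13.3. The examined junction of DNM2, the dynamin that cuts endocytic vesicles free, had a PSI of 77.2, 75.5 and 73.1% in MOLM13 with hairpin 64, against 12.5, 11.2 and 14.6% with shNT. MV4;11 libraries had 56.9, 53.4 and 55.5% with hairpin 64, against 11.7, 15.9 and 9.83% with shNT (difference 19.7 points, standard error 2.50, adjusted p = 0.0686, limma). The shNT libraries of the lines overlapped and the hairpin 64 libraries did not. SCARB1, the receptor for high-density lipoprotein, had 52.9, 49.3 and 58.3% in MOLM13 with hairpin 64, against 2.14, 2.41 and 1.79% with shNT, and 35.9, 33.1 and 40.8% in MV4;11 with hairpin 64, against 1.62, 1.04 and 1.89% with shNT (difference 16.3 points, standard error 3.37, adjusted p = 0.346, limma). An examined junction of RP1-66C13.3 had 88.8, 90.1 and 88.3% in MOLM13 with hairpin 64, against 9.85, 8.48 and 8.50% with shNT, and 68.2, 62.9 and 60.5% in MV4;11 with hairpin 64, against 3.38, 3.85 and 5.12% with shNT (difference 20.4 points, adjusted p = 0.0487, limma). Both again differed between the lines mostly with the hairpin.

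FNBP1, which bends membranes during endocytosis, gained a coding exon of 183 bases (chromosome 9, 132686123 to 132686305) at 74.9, 68.1 and 60.8% in MOLM13 with hairpin 64, against 25.0, 23.7 and 12.7% with shNT. For MV4;11 the values were 25.5, 28.8 and 29.7% with hairpin 64, against 4.04, 17.4 and 20.2% with shNT (difference 33.3 points, standard error 7.42, adjusted p = 0.437, limma). An intron of TYK2, a Janus kinase of cytokine receptors, was retained at 81.9, 76.1 and 78.1% in MOLM13 with hairpin 64, against 32.3, 34.5 and 36.3% with shNT, and at 70.8, 65.4 and 67.3% in MV4;11 with hairpin 64, against 49.1, 56.8 and 42.8% with shNT (difference 26.0 points, standard error 4.67, adjusted p = 0.233, limma). ARHGEF40, a guanine nucleotide exchange factor, reached a like level from unlike controls. Its 144-base exon was at 31.0, 42.9 and 42.9% in MOLM13 with hairpin 64, against 84.6, 86.7 and 90.5% with shNT, and at 41.1, 40.0 and 37.0% in MV4;11 with hairpin 64, against 70.0, 57.9 and 62.3% with shNT (difference -24.3 points, standard error 5.56, adjusted p = 0.471, limma).

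A few events moved further in MV4;11. NUMA1, which organises the mitotic spindle poles, had its 42-base exon at 22.9, 20.2 and 24.9% in MOLM13 with hairpin 64, against 64.0, 66.1 and 74.2% with shNT. The MV4;11 groups had 5.71, 3.56 and 7.83% with hairpin 64, against 77.4, 68.2 and 65.5% with shNT. The shNT libraries overlapped between the lines and the hairpin 64 libraries did not (difference 19.2 points, standard error 4.97, adjusted p = 0.659, limma), and the call was lost in 6 of 12 fits without 1 library, with p up to 0.0119. APP, the amyloid precursor protein, had a 54-base coding exon (chromosome 21, 27277336 to 27277389) at 99.2, 98.8 and 98.6% in MOLM13 with hairpin 64, against 67.8, 70.3 and 67.5% with shNT. With MV4;11 cells the values were 99.3, 98.4 and 99.0% with hairpin 64, against 55.1, 58.5 and 60.3% with shNT. The exon was near full inclusion with the hairpin in both lines, so the difference of -10.6 points (standard error 1.76, adjusted p = 0.181, limma) was that of the controls. PFKP, a phosphofructokinase of glycolysis, used the examined junction at 85.4, 85.1 and 86.7% in MOLM13 with hairpin 64, against 96.2, 97.9 and 100% with shNT, and at 65.0, 73.4 and 74.3% in MV4;11 with hairpin 64, against 99.0, 99.4 and 98.7% with shNT (difference 15.8 points, adjusted p = 0.312, limma).

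**Figure D5:**
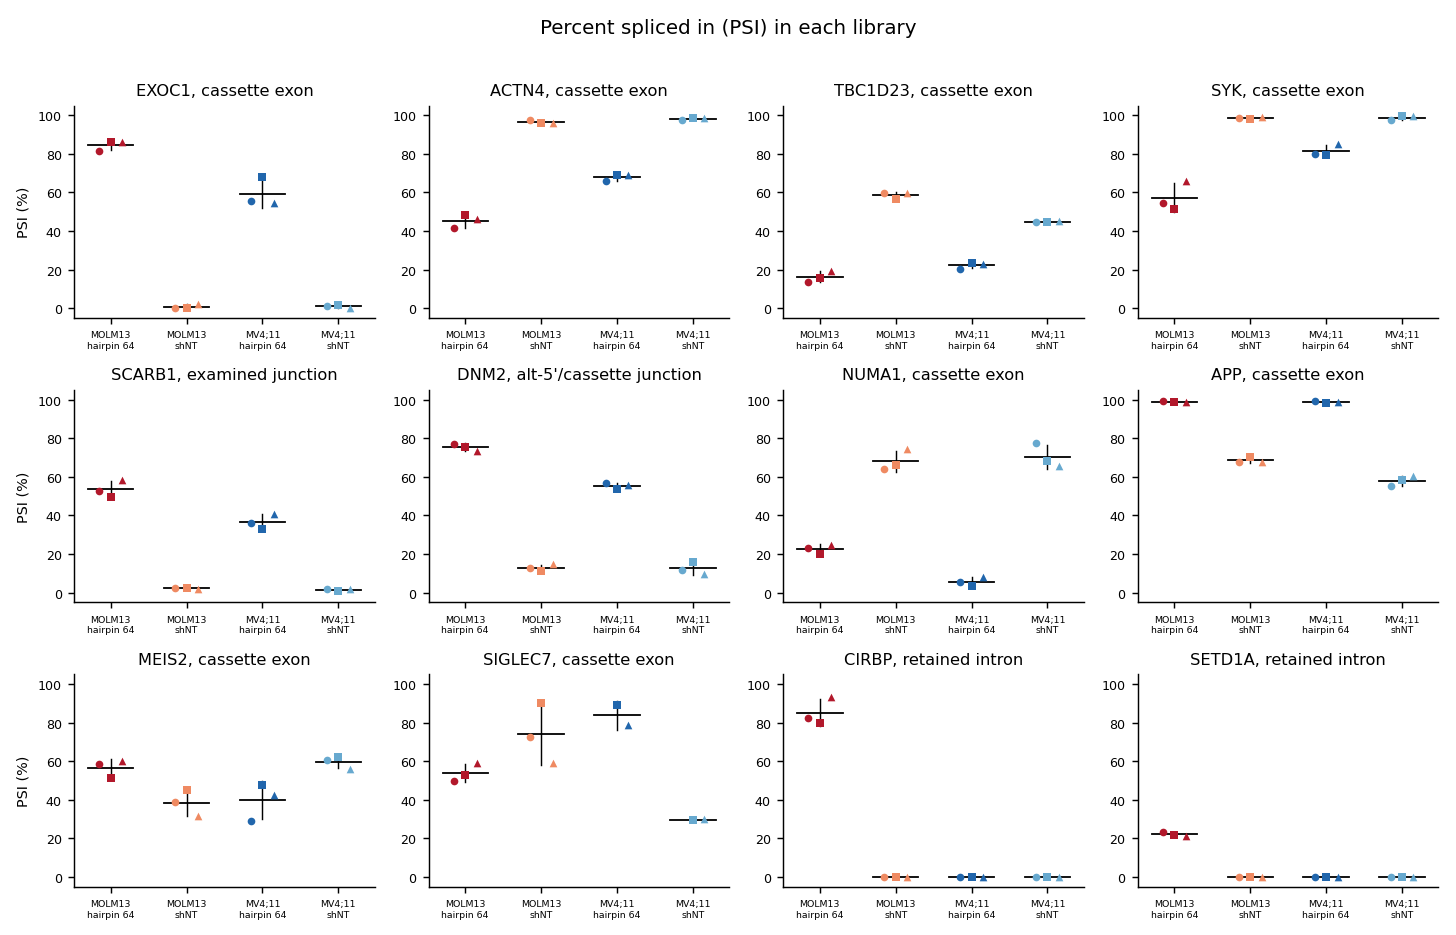
PSI in percent in each library for 12 events, with MOLM13 hairpin 64, MOLM13 shNT, MV4;11 hairpin 64 and MV4;11 shNT left to right. Points are libraries, horizontal lines are group means and vertical bars are the SD. The EXOC1 exon lies near 0 in both shNT groups and at 81.4 to 86.3% and 54.5 to 67.8% with hairpin 64.

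Over all clusters tested, by the same picked events, 112 were called in both lines in the same direction (0.557% of those tested). Of the 112, 65 had the larger response in MOLM13 and 47 in MV4;11. The difference of responses was called for 24 of the 112, 18 larger in MOLM13 and 6 larger in MV4;11. Over the 18, the median size of the response was 49.8 points in MOLM13 and 29.5 points in MV4;11, and the median gap between the lines was 17.5 points with hairpin 64 and 3.89 points with shNT. The 18 included DNM1, LMO7, CAPN3, PTPN3, TYK2, EXOC1, ARHGEF40, SYK, ACTN4, LAMP5, RP1-66C13.3, TBC1D23, DNM2, RABGAP1L, BAZ2B, SCARB1 and ZNF696, and the 6 were in NUMA1, PFKP, APH1A, TMEM64, WDR27 and APP. The calls of BAZ2B and DNM1 were each lost in 8 of 12 fits without 1 library, and that of CAPN3 in 5. With the block in both lines the lost calls included BAZ2B, CAPN3, LAMP5 and LMO7, and with the block in MOLM13 that of BAZ2B.

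At day 12 in MOLM13, all 18 events larger in MOLM13 and all 6 larger in MV4;11 had the same sign of response. Of them, 17 and 4 passed 10 points, against 7.52% of all clusters. These events were picked for a called MOLM13 response, so all clusters are an unlike background. Over the wider set of 180 clusters with both the difference and the MOLM13 response called, 143 had the same sign at day 12 and 51 of these passed 10 points, against 519 and 241 of the 631 clusters called in MOLM13. The means of the 3 libraries each at day 12 were 75.9% with hairpin 64 and 0.794% with shNT for EXOC1, 41.6% and 96.7% for ACTN4, 51.1% and 98.6% for SYK, 85.3% and 12.7% for DNM2, and 66.9% and 2.16% for SCARB1. For TBC1D23 the day 12 means were 20.7% with hairpin 64 and 52.6% with shNT. With hairpin 65 in MOLM13, 15 of the 18 and 4 of the 6 had the same sign, and 4 and 2 of these passed 10 points.

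Some responses reversed between the lines. Of the 65 clusters with opposite responses, 6 were called in each line on its own (0.0298%), 15 in MOLM13 alone, 17 in MV4;11 alone and 27 in neither. In the 65, the lines lay a median of 19.6 points apart with shNT and 16.6 points apart with hairpin 64. Over all called clusters these median gaps were 9.91 and 10.2 points, and over all tested clusters 2.54 and 2.46 points. Large opposite responses require a wide gap between the lines with shNT, with hairpin 64 or with both. The selection therefore favours wide gaps, and these medians do not tie the reversals to unlike controls. The 6 included CAMK2D, EPDR1, MEIS2, OSBPL11 and RP11-793H13.8. MEIS2, a homeobox partner of HOX proteins, had a non-coding exon of 96 bases (chromosome 15, 37186918 to 37187013) at 58.3, 51.4 and 60.0% in MOLM13 with hairpin 64, against 38.9, 45.0 and 31.6% with shNT. In MV4;11 it was at 29.2, 47.9 and 42.5% with hairpin 64, against 60.5, 62.2 and 55.9% with shNT. The groups were apart in both lines (difference 37.8 points, standard error 7.31, adjusted p = 0.298, limma). In these libraries the hairpin 64 mean of each line lay near the shNT mean of the other. In other MOLM13 libraries the shNT mean was 47.6% in the second shNT set and 35.7% at day 12, where hairpin 64 had 40.6%. CAMK2D, a calcium and calmodulin dependent kinase, used the examined 5′ splice site junction at 36.4 and 35.7% in the 2 measured MOLM13 libraries with hairpin 64, against 15.4 and 7.69% with shNT. Its MV4;11 values were 23.6, 24.1 and 22.9% with hairpin 64, against 34.7, 38.8 and 34.0% with shNT (difference 36.8 points, standard error 3.38, adjusted p = 0.0494, limma).

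The larger reversals outside these 6 were measured less evenly. SIGLEC7, an inhibitory receptor for sialic acid, had a 97-base coding exon at 50.0, 52.6 and 59.1% in MOLM13 with hairpin 64, against 72.7, 90.0 and 58.8% with shNT, which overlapped. In the 2 measured MV4;11 libraries of each group it was at 88.9 and 78.6% with hairpin 64, against 29.4 and 30.0% with shNT (difference -74.0 points, standard error 12.3, adjusted p = 0.298, limma). ST8SIA5, a sialyltransferase, had a 108-base coding exon at 63.6, 53.8 and 60.0% in MOLM13 with hairpin 64, against 23.1 and 22.2% in the measured shNT libraries, and at 22.9, 23.5 and 33.3% in MV4;11 with hairpin 64, against 33.3, 44.0 and 50.0% with shNT (difference 52.4 points, adjusted p = 0.125, limma). TNRC6A, a partner of Argonaute proteins in silencing by microRNAs, had an 88-base coding exon at 98.0, 92.9 and 100% in MOLM13 with hairpin 64, against 80.0, 89.5 and 91.3% with shNT, and at 67.5, 62.1 and 72.0% in MV4;11 with hairpin 64, against 90.5, 93.8 and 90.5% with shNT (difference 34.4 points, adjusted p = 0.103, limma). An intron of EIF4A1 differed by 78.8 points (adjusted p = 0.619, limma), and its call was lost with either block.

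At day 12 in MOLM13, 44 of the 65 had the same sign of response and 13 of these also passed 10 points. Of the 631 clusters called in MOLM13, 519 had the same sign and 241 of these passed 10 points, but only part of the 65 were called in MOLM13. Over all tested clusters, 7.52% passed 10 points at day 12 in either direction. Of the 6 called in each line, 4 had the same sign and none passed 10 points, with day 12 responses of 4.9 points for MEIS2 and 4.0 points for CAMK2D. The day 12 response was -11.2 points for ST8SIA5, against 36.5 points in the first set.

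Of the 18 clusters with an adjusted p under 0.05, 13 were retained introns, most of them seen in a single group. An intron of CIRBP, the cold-inducible RNA-binding protein (chromosome 19, 1272051 to 1274305), had a retention of 82.3, 80.0 and 93.1% in MOLM13 with hairpin 64 and was listed at 0 in the other 9 libraries (difference 85.2 points, adjusted p = 0.000144, limma). An intron of SETD1A, a histone H3 lysine 4 methyltransferase (chromosome 16, 30991516 to 30991805), was at 23.3, 21.7 and 21.3% in MOLM13 with hairpin 64 and listed at 0 in the other 9 (difference 22.1 points, adjusted p = 1.64e-06, limma). Introns of NLRC3, FAAH, CROCCP2, SPNS1, LRP5L and TWIST1 were likewise retained in MOLM13 with hairpin 64, with differences of 29.5, 29.5, 30.2, 42.5, 22.0 and 18.2 points. In MV4;11, introns of ANKRD10 at 10.1, 10.7 and 10.6% and of PKD1 at 11.6, 10.9 and 9.26% were seen with hairpin 64 alone among the 12 libraries (differences -10.5 and -10.6 points). Introns of RNMT, NBPF11 and STK36 were instead high in MV4;11 with shNT, RNMT at 63.3 and 64.7% in its 2 measured libraries and 0 in the other measured libraries of the 12, with differences of 64.0, 41.9 and 41.6 points. STK36 was measured at 44.4 and 44.0% in MV4;11 with shNT and lay at 0 to 9.09% elsewhere. An examined junction of HAUS3 was low in MV4;11 with shNT alone, with a difference of -48.6 points. Outside the 18, an intron of NUDT13 was also low there (difference -74.3 points, adjusted p = 0.157, limma). NBPF11 belongs to a family of near-identical copies, so its reads are uncertain.

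A group in which every library is listed at the same value contributes no spread. Of the 18 clusters with an adjusted p under 0.05, 10 had 3 such groups, 3 had 2 and 5 had none, namely ACTN4, TBC1D23, RP1-66C13.3, CAMK2D and STK36. Restricted to events with spread in every group, which keeps only these 5 of the 18, 403 clusters were called and none had an adjusted p under 0.05. At day 12 in MOLM13 the CIRBP intron was at a mean of 78.2% with hairpin 64 and 24.9% with shNT, the SETD1A intron at 18.8% and 2.61%, and the SPNS1 intron at 18.4% and 0%. The RNMT intron, at 0 in the first MOLM13 set, was at 23.0% with hairpin 64 and 48.3% with shNT at day 12. The ANKRD10 intron was there at 13.9% with hairpin 64 and 13.7% with shNT, and the PKD1 intron at 12.8% and 11.5%. The FAAH, NLRC3 and TWIST1 introns had no like response there, at -1.20, -9.12 and -1.57 points. With hairpin 65 in MOLM13 the CIRBP intron was at a mean of 36.3%, against 0% in the second shNT set.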

How the data were processed

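RNA-seq of 12 cell-line libraries was used, 3 in each of 4 groups assigned from the deposited labels. The authors used STAR for alignment to hg19 (GRCh37). The authors deposited gene expression in RPKM and splicing as a PSI fraction, both from AltAnalyze. Both were used as deposited. PSI is printed in percent, oriented to inclusion for exons and introns. Expression covered 22391 genes, of which 19445 took a symbol from the reference names and 721 only from the splicing data. Splicing covered 100814 events in 29031 clusters. Columns of the authors' own comparisons were not used.

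The contrast was (MOLM13 hairpin 64 minus MOLM13 shNT) minus (MV4;11 hairpin 64 minus MV4;11 shNT), fitted to all genes or events with limma 3.58.1 under R 4.3.3 (data.table, version 1.17.8), tested on simulated data first. Genes that averaged 1 RPKM or more in any group were tested on log2(RPKM + 1) with a pseudocount of 1, which understates changes of low genes, and called at p of 0.01 or less with a 1.5-fold difference. Events measured in at least 2 of 3 libraries of each group were called at the same p where the responses differed by more than 0.1. Each cluster was represented by its event of smallest p for the difference of responses, also in the counts for each line. Adjusted p-values are Benjamini-Hochberg values over all genes or events. Depth is not given, so no counting intervals were made. With 3 against 3 libraries single-gene permutation tests cannot pass these thresholds.

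Replicate numbers were checked for pairing by correlating deviations from group means. Same-numbered hairpin 64 and shNT libraries gave r of 0.844, 0.793 and 0.880 for expression in MOLM13 and -0.05, 0.03 and -0.08 in MV4;11. In MOLM13, hairpin 64 library 1 with shNT library 2 gave 0.738, and hairpin 64 library 2 with shNT library 1 gave 0.663. Pairs of a MOLM13 library 3 with a library 1 or 2 gave -0.857 to -0.777. The values set libraries numbered 3 against the others and do not show pairing by each number. For PSI the values were 0.144, 0.0919 and 0.291 in MOLM13 and under 0.01 in MV4;11.

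The lists, thresholds and named items were chosen with earlier results of these data known. Named genes were MBNL1 to MBNL3, the 10 highest and 10 lowest differences among called genes whose single-library responses did not overlap between the lines, genes with opposite responses, and up to 3 called genes of each list with the lowest p. Named events followed the same rule by type. A few named items are not reported here. Alternatives were a pseudocount of 0.1, other filters, an intensity trend, quantile normalization, log2 odds, a difference over 0.2, replicate blocks, leaving out libraries, the second MOLM13 shNT set, day 12 and the spread of all 28 libraries. Sequences were read from GRCh37 with pysam 0.24.0 under Python 3.11.15 (numpy 2.4.6, pandas 2.3.3), and figures drawn with matplotlib 3.10.9.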

Additional observations from a re-analysis of the deposited data

Results flagged for a closer look

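The responses of the lines differed at an adjusted p under 0.05 (limma) for 1 gene and 18 junction clusters. The gene was LYZ, with a difference of 2.22 on log2(RPKM + 1), MOLM13 minus MV4;11.

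In percentage points of PSI, the retained introns with a higher response in MOLM13 were those of CIRBP (85.2), RNMT (64.0), SPNS1 (42.5), NBPF11 (41.9), STK36 (41.6), CROCCP2 (30.2), FAAH (29.5), NLRC3 (29.5), SETD1A (22.1), LRP5L (22.0) and TWIST1 (18.2). For RNMT, NBPF11 and STK36 the difference came from a high retention in MV4;11 with shNT. Introns of ANKRD10 (-10.5) and PKD1 (-10.6) had a lower response in MOLM13. The exons of ACTN4 (-20.9) and TBC1D23 (-19.7) and the examined junctions of RP1-66C13.3 (20.4), CAMK2D (36.8) and HAUS3 (-48.6) made up the rest. Of these 18 clusters, 13 rest on at least 2 groups in which every measured library had the same value. A fit restricted to events with spread in every group left out those 13. None of the 5 that it kept had an adjusted p under 0.05 there (limma).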

How the results depend on the processing

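Depth is unknown for RPKM and PSI, so differences in precision between libraries could not be weighed. The 70 called genes became 227 with the replicate block in MOLM13, 261 with it in both lines, 217 without both MOLM13 libraries numbered 3, 116 with the second MOLM13 shNT set, 110 with the spread of all 28 libraries and 555 with the day 12 MOLM13 response. Leaving out 1 library gave 46 to 473, the highest without MV4;11 shNT library 3 and the lowest without MV4;11 hairpin 64 library 2. The single opposite gene became 9 with a pseudocount of 0.1, 2 with quantile normalization, 3 with either block, 5 without both MOLM13 libraries numbered 3, 4 with the second set, 2 with all 28 libraries and 12 at day 12, and 0 to 6 without 1 library. The MBNL1 interaction (the difference of responses) turned to 0.063 with the second set, and lay between -0.261 and 0.0287 without 1 library, positive without MOLM13 shNT library 3. The 435 clusters became 208 with a difference over 0.2, 708 with the second set and 408 to 777 without 1 library, with 508 under the block in both lines and 504 under that in MOLM13. The 65 junction clusters with opposite responses became 11 with a difference over 0.2, 113 with all 28 libraries and 58 to 100 without 1 library, again highest without MV4;11 shNT library 3. With the second set the sign turned for HLA-DRA (1.45) and HLA-DRB1 (1.11), and at day 12 for APP (2.56 points), FAAH (-1.20), NLRC3 (-9.12) and TWIST1 (-1.57). The cause was not tested. Over the alternatives, the named genes other than MBNL1 kept direction and call status in 613 fits, lost the call in 94, gained it in 18 and turned in 2. The named events did so in 956, 112, 0 and 4. Genes uncalled in the main fit that stayed uncalled count as kept. For events, the log2 odds and the difference over 0.2 reused the main difference, and for genes the blocks left it unchanged. Those fits could not turn a direction.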
